A study of Mus musculus with 24 samples.

Results

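The depot difference of maturation was the question put to the control cells: which genes changed differently between day 4 and day 8 of adipogenic differentiation in brown and in white preadipocytes. The members were the 12 control libraries of the 24 in the series, chosen by their labels, with 3 libraries in each of 4 groups (BAT day 4, BAT day 8, WAT day 4 and WAT day 8). The quantity described is the interaction, that is the day 8 minus day 4 change in BAT minus the same change in WAT on the log2(FPKM + 1) scale. A positive interaction means that the change in BAT lay above the change in WAT, whether or not either depot rose.

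The study sequenced total RNA from stromal vascular fraction cells of inguinal WAT and interscapular BAT of 6-week-old C57BL/6 mice. Cells of both depots received an induction medium with insulin, dexamethasone and IBMX for 4 days. Those taken on day 8 then had a medium with insulin and the thyroid hormone T3 for 4 more days. Effects of day and of medium therefore cannot be told apart. The control cells were given DMSO, the solvent of the tea polyphenol EGCG that the other 12 libraries received. The labels do not say whether day 4 RNA was taken before or after the switch of medium, nor whether replicates came from separate animals or cultures, so the p-values measure a spread between libraries that may be technical.

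The stromal vascular fraction is the mixture of non-adipocyte cells that collagenase frees from fat, and it holds preadipocytes beside fibroblast-like, immune, endothelial and mural cells. Dexamethasone activates the glucocorticoid receptor and IBMX raises cAMP by blocking phosphodiesterases, and together with insulin they start adipogenesis, after which PPARG and C/EBP proteins hold the adipocyte programme. Brown adipocytes are rich in mitochondria, and after full activation they release heat through UCP1, whereas white adipocytes store triglyceride.

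The control libraries of replicates 1 and 2, deposited in a table of their own, held 39452696 to 51319195 reads on genes. Those of replicate 3 held 16392420 to 17671381 in a second table. Gapdh read 793 to 2840 FPKM there against 26.0 to 62.8 FPKM in the first table, while other genes such as Mb read alike in both, and the cause was not tested, so tests used replicates 1 and 2 and replicate 3 gave directions only. A gene with a length of 2 kb would have reached the floor of 3 reads at 0.0292 to 0.0380 FPKM in replicates 1 and 2 and at 0.0849 to 0.0915 FPKM in replicate 3, and such floors cover counting error only. WAT day 8 replicates differed more than those of the other groups (SD of the log2 difference 0.234 against 0.146 to 0.152), and WAT day 8 replicate 1 often stood apart from replicates 2 and 3. The adipocyte genes Adipoq and Fabp4 were expressed in all 12 libraries, Zic1 marked the BAT libraries (3.57 to 10.9 FPKM against 0.0243 to 0.163 in WAT) and Hoxc10 the WAT libraries (6.89 to 10.2 FPKM against 0 to 0.0582 in BAT). Ucp1 reached only 4.20 to 6.97 FPKM in BAT day 8 cells.

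Of 13453 genes tested, 4276 (31.8%) had an interaction that passed limma at a Benjamini-Hochberg adjusted p under 0.05. The BAT change lay above the WAT change for 1630 genes (12.1%) and below it for 2646 genes (19.7%). At a size of at least 1 on the log2 scale the counts were nearly even, with 404 genes (3.0%) above and 405 genes (3.01%) below. With median-ratio scaling the split of the 3911 calls was also nearly even, at 1996 above and 1915 below, and with quantile normalization it was 1950 above and 2070 below, so the excess of genes below depended on the scaling. In BAT 3704 genes (27.5%) rose and 5301 (39.4%) fell between the days, and in WAT 3503 (26.0%) rose and 4203 (31.2%) fell. Across the 13453 genes, which are not independent replicates, the changes of the depots correlated with a Pearson r of 0.729, from libraries that the depots did not share but that were scaled in 1 table.

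Called genes rarely moved in opposite directions by the tests within each depot. Among the 1630 genes with the BAT change above, 493 (30.2%) rose in both depots, 537 (32.9%) rose in BAT with no call in WAT, 286 (17.5%) fell in WAT with no call in BAT, and 185 (11.3%) rose in BAT and fell in WAT. Among the 2646 genes with the BAT change below, 913 (34.5%) fell in both depots, 782 (29.6%) fell in BAT alone by the test, 415 (15.7%) rose in WAT alone by the test, and 220 (8.31%) fell in BAT and rose in WAT. Which depot had the higher mean switched between day 4 and day 8 for 2337 (54.7%) of the called genes and for 33.4% of all tested genes. In replicate 3 the interaction had the same sign for 4018 (93.97%) of the called genes and for 76.16% of all tested genes. Among the 809 called genes with a size of at least 1 it had the same sign for 727 (89.86%).

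**Figure D1:**
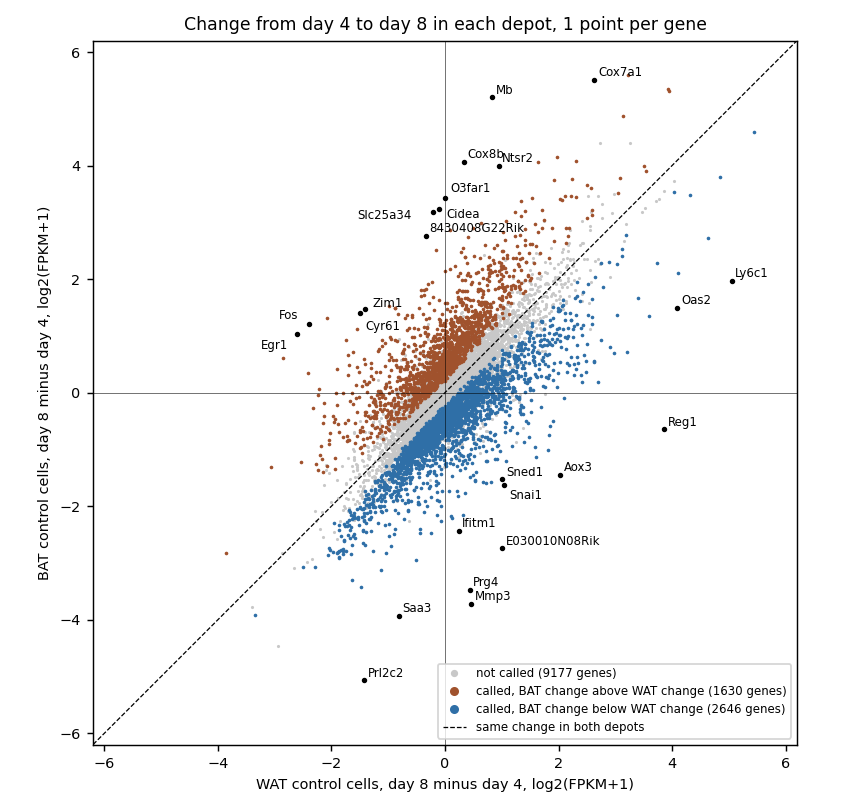
Day 8 minus day 4 change in WAT control cells (horizontal axis) and in BAT control cells (vertical axis), both in log2(FPKM + 1) from replicates 1 and 2, with 1 point per tested gene and the 24 genes with the largest called interactions named. The 1630 called genes above the dashed line of equal change include Mb, Cox8b, Fos and Egr1, and the 2646 below it include Reg1, Mmp3 and Snai1.

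The 12 largest positive interactions included the brown fat genes Cox8b and Cidea and the early genes Egr1 and Fos. The largest was that of Mb. Mb (ENSMUSG00000018893.8, chr15:76845919-76881100 on mm9, minus strand) encodes the oxygen carrier myoglobin and read 0.382, 0.663 and 0.323 FPKM on day 4 and 55.1, 54.5 and 49.8 FPKM on day 8 in BAT replicates 1, 2 and 3, an order kept for all values below. In WAT it read 0.969, 1.01 and 1.54 FPKM on day 4 and 2.87, 2.25 and 2.95 FPKM on day 8. Mb thus rose in both depots, with no overlap between the groups on day 8, and its interaction was 4.37 ± 0.164 (SE, n = 2 per group; limma adjusted p = 5.48e-05). Its gene model overlaps that of Apol6, and with no strand setting stated for the counting, reads of the pair cannot be told apart. The same holds for Cidea with B430212C06Rik, 8430408G22Rik with Rassf4, Prg4 with Tpr, Aox3 with SNORA17, Sned1 with Mterfd2 and, among the list members named below, for further genes such as Elovl3 with Pitx3 and Zic1 with Zic4.

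Cox8b (chr7:148084842-148086345, mm9, minus strand), the muscle and brown fat form of a cytochrome c oxidase subunit, read 3.5, 4.24 and 4.11 FPKM in BAT on day 4 and 84.8, 76.3 and 76.9 FPKM on day 8. In WAT it read 4.63, 5.35 and 6.91 FPKM and then 6.17, 6.88 and 6.5 FPKM, a rise of 0.33 by the test (limma adjusted p = 0.0278) although the 3 libraries of the days overlapped, and the interaction was 3.74 ± 0.146 (limma adjusted p = 5.48e-05). Cox7a1, another tissue-specific cytochrome c oxidase subunit, read 2.87, 3.54 and 3.43 FPKM on day 4 and 191, 190 and 176 FPKM on day 8 in BAT, and it also rose in WAT, from 3.00, 2.18 and 2.01 to 22.5, 19.7 and 17.6 FPKM. Both depots increased Cox7a1, so that its interaction of 2.88 ± 0.178 was the distance between a rise of 5.51 and a rise of 2.63.

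Cidea, a lipid droplet protein enriched in brown fat, read 0.342, 0.229 and 0.358 FPKM on day 4 and 11.1, 10.9 and 8.51 FPKM on day 8 in BAT. It did not exceed 0.259 FPKM in any WAT library and was listed at 0 in 2 of them. Its interaction was 3.33 ± 0.156. Ucp1, the uncoupling protein, read 0.423, 0.243 and 0.217 FPKM on day 4 and 6.97, 6.15 and 4.20 FPKM on day 8 in BAT, and in WAT it went from 0.178, 0.0567 and 0.0371 FPKM to no read in any of the 3 day 8 libraries. The Ucp1 interaction was 2.66 ± 0.180 (limma adjusted p = 2.5e-04), and it came from the rise in BAT, since the WAT change was not called.

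O3far1, the receptor for long-chain fatty acids also called GPR120, read 1.50, 2.08 and 3.12 FPKM on day 4 and 29.9, 27.9 and 31.3 FPKM on day 8 in BAT, and 1.05 to 2.06 FPKM in all 6 WAT libraries (interaction 3.43 ± 0.202). Slc25a34, a member of the mitochondrial carrier family, read 1.63, 1.65 and 2.72 FPKM and then 21.5, 24.6 and 20.0 FPKM in BAT, and 0.987 to 2.49 FPKM across WAT (interaction 3.39 ± 0.242). Ntsr2, a neurotensin receptor, read 0.0385 to 0.129 FPKM and then 15.2, 17.8 and 13.1 FPKM in BAT, and reached 0.858 to 1.14 FPKM in WAT on day 8 (interaction 3.06 ± 0.163). The transcript 8430408G22Rik read 2.98, 4.32 and 3.93 FPKM and then 27.9, 32.9 and 30.5 FPKM in BAT, with 1.47 to 3.06 FPKM in WAT (interaction 3.10 ± 0.324). For all 4 of these genes the BAT day 8 libraries stood above every other control library.

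Of 22 brown thermogenic effectors, 16 passed the filter on low values, 8 of them had the BAT change above the WAT change and 1 below, against 12.1% and 19.7% of all tested genes, the shares beside which every list count here is to be read. The median interaction was 0.70, against -0.0822 over all tested genes. Ucp1 and Cidea, counted among the 8, passed the filter only through the BAT day 8 libraries. A positive interaction was thus fixed for them in advance, and the count of 8 is a description. Plin5, which tethers lipid droplets to mitochondria, read 1.39, 1.31 and 1.29 FPKM and then 22.8, 18.3 and 27.1 FPKM in BAT, and 0.667, 0.681 and 1.29 FPKM and then 2.78, 3.06 and 3.46 FPKM in WAT (interaction 1.96 ± 0.154). Elovl3, a fatty acid elongase of brown fat, went the other way: it fell in BAT from 10.2, 12.9 and 12.3 FPKM to 2.27, 1.20 and 1.53 FPKM, and its interaction was -1.51 ± 0.296. Dio2, which makes active thyroid hormone, had an interaction of 0.62 ± 0.199 that missed the threshold (limma adjusted p = 0.0514).

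Of 16 tested brown transcription regulators 8 had the BAT change above and 2 below. In BAT 7 rose and 5 fell, with a median change of 0.20, and in WAT none rose and 9 fell, with a median change of -0.43. The coactivator Ppargc1a read 3.05, 3.51 and 3.43 FPKM on day 4 and 3.62, 3.60 and 3.15 FPKM on day 8 in BAT, a change that was not called, while in WAT it fell from 2.94, 2.36 and 2.92 FPKM to 0.582, 0.983 and 0.737 FPKM (interaction 1.15 ± 0.190). Its relative Ppargc1b rose in BAT from 4.72, 5.27 and 4.20 to 8.81, 7.72 and 5.53 FPKM and fell in WAT from 3.27, 3.69 and 3.09 to 1.20, 1.45 and 1.12 FPKM (interaction 1.57 ± 0.143). Irf4, a transcription factor of thermogenic genes, rose in BAT from 0.0738, 0.212 and 0.164 FPKM to 8.16, 7.94 and 6.65 FPKM, and in WAT the day 8 libraries were spread over 0.844, 3.32 and 3.02 FPKM (interaction 2.35 ± 0.497). The lineage factor Zic1 fell in BAT and had an interaction of -1.27 ± 0.134, and Prdm16, a brown fate regulator at 0.857 to 2.36 FPKM across the 12 libraries, had an interaction of 0.39 ± 0.131 that was not called (limma adjusted p = 0.0571).

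The respiratory chain, the longest list, had the most called positive interactions by number. By share other lists stood higher, such as the citric acid cycle (16 of 18) and the immediate early genes (22 of 26). Of 68 nuclear-encoded oxidative phosphorylation subunits, all of which passed the filter, 54 had the BAT change above the WAT change and none below, beside a background of 12.1% above. The median interaction was 0.63, made of a median rise of 0.70 in BAT and a median change of 0.05 in WAT. In BAT 62 of the 68 rose and 2 fell, and in WAT 13 rose and 4 fell. Summed over the list, BAT went from 8093, 8930 and 10510 FPKM to 13950, 13900 and 15030 FPKM, and WAT from 6190, 5716 and 7608 FPKM to 5725, 6441 and 6822 FPKM. The BAT libraries of the days did not overlap, while the WAT libraries did.

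Complexes I, III, IV and V all had called subunits. Complex I, which takes electrons from NADH, had 25 of 30 subunits called above with a median interaction of 0.60, and complex III, cytochrome bc1, had 8 of 9 with a median of 0.69. Complex IV, cytochrome c oxidase, had 12 of 13 with a median of 0.84, and complex V, the ATP synthase, had 8 of 15 with a median of 0.47. Ndufs1, the large iron-sulphur subunit of complex I, read 41.2, 41.7 and 49.5 FPKM and then 83.4, 81.7 and 86.3 FPKM in BAT, beside 26.8, 26.8 and 33.4 FPKM and then 27.7, 31.3 and 35.6 FPKM in WAT (interaction 0.84 ± 0.0891). Cox5a, a cytochrome c oxidase subunit present in all tissues, read 83.4, 94.4 and 172 FPKM and then 161, 155 and 269 FPKM in BAT, and 66.0, 56.8 and 127 FPKM and then 51.9, 58.4 and 107 FPKM in WAT (interaction 0.98 ± 0.136). Replicate 3 read higher for Cox5a than the other replicates in each group but moved the same way.

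Lists of enzymes that feed the chain also held more genes above than below. Of 18 citric acid cycle genes 16 had the BAT change above and none below, with a median interaction of 0.70. Sdhb, the iron-sulphur subunit of succinate dehydrogenase, read 84.7, 95.4 and 114 FPKM and then 174, 178 and 189 FPKM in BAT, beside 65.6, 59.3 and 71.1 FPKM and then 62.2, 69.1 and 71.9 FPKM in WAT (interaction 0.89 ± 0.117). The exceptions in that list were Suclg2 and Pcx, with interactions of 0.01 and -0.47 that were not called. Of 23 tested fatty acid oxidation genes 14 were above and none below (median 0.55). In BAT 21 of the 23 rose and none fell, and in WAT 17 rose and 1 fell. Hadhb, the thiolase subunit of the trifunctional protein, read 27.2, 28.5 and 41.1 FPKM and then 124, 122 and 148 FPKM in BAT and 18.0, 18.0 and 24.4 FPKM and then 26.2, 27.1 and 32.9 FPKM in WAT (interaction 1.57 ± 0.0689). Of 19 genes of branched-chain amino acid breakdown 12 were above and 1, the cytosolic transaminase Bcat1, below (median 0.43). That count of 12 fell to 7 without BAT day 4 replicate 1 and to 6 without WAT day 4 replicate 1.

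**Figure D2:**
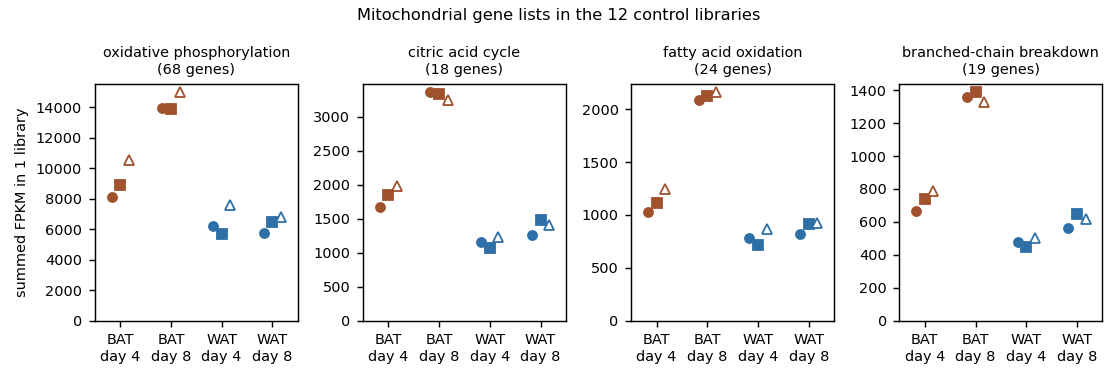
Summed FPKM of 4 mitochondrial gene lists in each of the 12 control libraries, by depot and day, with filled symbols for replicates 1 and 2 and open triangles for replicate 3, which comes from the second table. In each panel the BAT day 8 libraries lie above all others, for oxidative phosphorylation at 13900 to 15030 FPKM. The WAT day 8 libraries overlap those of WAT day 4 for oxidative phosphorylation and lie above them for the citric acid cycle and branched-chain breakdown. For fatty acid oxidation the only overlap is of WAT day 8 replicate 1 (821 FPKM) with WAT day 4 replicate 3 (863 FPKM) of the second table.

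A second group with large positive interactions was the immediate early genes, which growth factors, stress and cAMP switch on within minutes and whose products are mostly transcription factors. This list of 26 was written after the values had been seen, so its counts are a description. Of the 26, 22 had the BAT change above the WAT change and none below, with a median interaction of 1.15 made of a median change of 0.42 in BAT and -1.04 in WAT. In WAT 18 fell and 2 rose, and in BAT 17 rose and 4 fell. WAT had the higher mean for 24 of the 26 on day 4 and BAT for 19 on day 8. Summed over the list, BAT libraries went from 684 to 753 FPKM on day 4 to 1086 to 1225 FPKM on day 8, and WAT libraries from 1397 to 1552 FPKM to 547 to 756 FPKM.

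Fos (chr12:86814840-86818223, mm9, plus strand), a partner in the AP-1 factor, read 12.4, 10.4 and 12 FPKM on day 4 and 28.4, 26.3 and 28.0 FPKM on day 8 in BAT. In WAT it fell from 23.8, 20.7 and 22.7 FPKM to 3.40, 3.43 and 3.95 FPKM. All 4 groups were apart from each other, and the interaction was 3.59 ± 0.135 (limma adjusted p = 5.48e-05). Egr1, a zinc finger factor of the same response, read 50.7, 52.4 and 58.7 FPKM and then 106, 107 and 110 FPKM in BAT. It fell in WAT from 139, 132 and 155 FPKM to 31.2, 14.4 and 19.7 FPKM, and its interaction was 3.65 ± 0.398 (limma adjusted p = 0.00132). Its gene model overlaps Gm17507.

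Cyr61, a secreted matricellular protein, read 114, 120 and 125 FPKM and then 304, 315 and 319 FPKM in BAT, and 474, 442 and 431 FPKM and then 201, 131 and 158 FPKM in WAT (interaction 2.89 ± 0.243). Ier2, Btg2 and Klf6 had interactions of 2.76 ± 0.143, 2.67 ± 0.356 and 2.13 ± 0.140. Not every gene crossed in this way. Nr4a1, an orphan nuclear receptor, fell in both depots, from 48.5, 43.7 and 41.8 FPKM to 17.9, 18.0 and 18.6 FPKM in BAT and from 77.5, 76.3 and 79.9 FPKM to 13.2, 5.03 and 7.95 FPKM in WAT, where the fall was larger (interaction 1.76 ± 0.465). Junb fell in WAT from 93.6, 88.2 and 116 FPKM to 49.9, 34.2 and 43.2 FPKM, and in BAT it read 94.7, 85.0 and 94.1 FPKM and then 70.1, 72.4 and 85.8 FPKM, a change that was not called (interaction 0.79 ± 0.217).

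The promoters of these genes are shown because the members moved together and the cAMP response element core can be looked for in them. The 250 bases before the start were read from RefSeq on GRCm38.p6, and TGACG was searched on both strands. Of the 22 called immediate early genes 17 had a promoter entry, and 11 of these held TGACG, against 17.8% of all 32851 promoters in the table. The match is a description of letters, not of a bound site. In the following sequences, written 5′ to 3′ along the gene's strand, capitals mark TGACG or its reverse complement. Fos lies at chr12:85473640-85473889 on the plus strand, Nr4a1 at chr15:101266596-101266845 on the plus strand and Junb at chr8:84978749-84978998 on the minus strand.
Fos: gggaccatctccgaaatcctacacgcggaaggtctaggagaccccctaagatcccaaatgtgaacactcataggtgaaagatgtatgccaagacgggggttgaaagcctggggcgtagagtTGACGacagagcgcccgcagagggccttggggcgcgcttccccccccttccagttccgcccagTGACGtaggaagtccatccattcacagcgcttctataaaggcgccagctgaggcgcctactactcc
Nr4a1: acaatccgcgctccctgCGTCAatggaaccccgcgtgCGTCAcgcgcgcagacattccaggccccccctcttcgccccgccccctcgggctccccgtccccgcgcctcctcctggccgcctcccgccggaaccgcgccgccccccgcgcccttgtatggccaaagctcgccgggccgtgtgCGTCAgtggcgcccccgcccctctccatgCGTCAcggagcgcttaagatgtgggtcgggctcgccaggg
Junb: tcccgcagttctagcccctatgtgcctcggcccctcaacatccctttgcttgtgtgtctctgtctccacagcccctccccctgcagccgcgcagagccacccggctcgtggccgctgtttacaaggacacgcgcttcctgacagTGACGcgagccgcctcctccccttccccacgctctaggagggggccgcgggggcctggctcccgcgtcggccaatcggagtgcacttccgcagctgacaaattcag
The core occurred 2 times in the Fos window with the nearest copy 61 bases from the start, 4 times in that of Nr4a1 with the nearest at 35 bases, and once in that of Junb at 101 bases. The serum response element core (CArG box) was found in 2 of the 17 windows, those of Egr2 and Zfp36, and in 1.47% of all promoters. Ctgf, Cyr61, Egr1, Egr3 and Ier2 had no promoter entry, and bases further than 250 from the start were not searched. The presence of the element in those genes or beyond the windows was not tested. Called genes of other lists were searched as well. TGACG was in 8 of 12 windows of glucocorticoid or cAMP response genes. The 8 include Dusp1, Nr4a1, Nr4a2 and Nr4a3, whose windows were already counted among the 11 of the immediate early genes. The letters TNAAGGTCA, with N as any base, were in only 1 of 43 windows of oxidative phosphorylation subunits, and in 1.14% of all promoters.

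**Figure D3:**
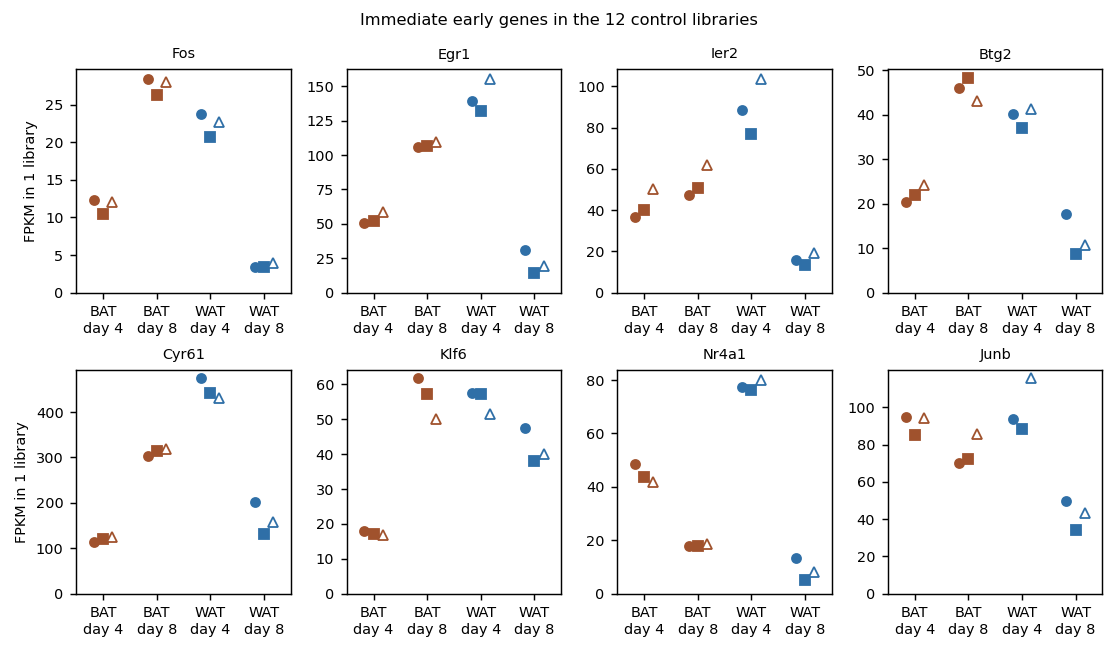
FPKM of 8 immediate early genes in each of the 12 control libraries, by depot and day, with filled symbols for replicates 1 and 2 and open triangles for replicate 3. For Fos, Egr1, Ier2, Btg2, Cyr61 and Klf6 the BAT libraries are higher on day 8 than on day 4 and the WAT libraries lower, whereas Nr4a1 is lower on day 8 in both depots and Junb falls in WAT.

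Genes known to answer to glucocorticoid or cAMP, the agents of the induction medium, gave 14 of 22 with the BAT change above and none below. Dusp1, Nr4a1, Nr4a2 and Nr4a3 were called members of the immediate early list too. The median interaction was 0.96, from a median change of 0.54 in BAT and -0.42 in WAT, and of the 22 genes 12 rose and 7 fell in BAT while 4 rose and 12 fell in WAT. Sgk1, a kinase induced by glucocorticoid, read 25.6, 25.1 and 26.1 FPKM and then 35.3, 37.7 and 36.9 FPKM in BAT. In WAT it fell from 146, 133 and 130 FPKM to 44.5, 60.2 and 62.7 FPKM (interaction 1.92 ± 0.180). Lpin1, a phosphatidate phosphatase, rose in BAT from 30.9, 36.5 and 34.0 FPKM to 154, 141 and 118 FPKM and in WAT read 21.8, 19.4 and 19.1 FPKM and then 21.1, 29.7 and 24.6 FPKM (interaction 1.83 ± 0.217).

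The glucocorticoid targets were not of 1 pattern. Per1 (0.98 ± 0.0915) rose in BAT and fell in WAT, Angptl4 (1.62 ± 0.133) rose in both, and Fkbp5, a chaperone that is a standard glucocorticoid target, had an interaction of 0.97 ± 0.365 that was not called (limma adjusted p = 0.0807) with WAT day 8 libraries at 52.7, 103 and 102 FPKM. Tsc22d3, another standard target, was not called either, at -0.32. The count of 14 went to 9 with no filter on low values, to 9 without BAT day 4 replicate 1 and to 8 without WAT day 4 replicate 1. Of 12 genes with a known link to thyroid hormone, which is in the second medium, 6 were above and 3 below. Hr, a corepressor that thyroid hormone induces, rose from 0.204, 0.440 and 0.244 FPKM to 21.8, 20.7 and 19.3 FPKM in BAT and from 0.594, 0.478 and 0.588 FPKM to 5.21, 8.28 and 7.53 FPKM in WAT (interaction 1.77 ± 0.258).

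Most cell cycle genes fell further in BAT. All 24 fell in both depots, with median changes of -2.45 in BAT and -1.63 in WAT, and 19 of them had a called interaction below 0 and none above, against 19.7% of all tested genes below. The median interaction was -0.77, and it was smaller in replicate 3 at -0.43, where all 24 kept their sign. BAT had the higher mean for all 24 on day 4 and WAT for 18 on day 8, so the depots started apart and ended close together. The summed level went from 473 to 488 FPKM to 85.6 to 99.7 FPKM in BAT and from 333 to 348 FPKM to 92.2 to 97.4 FPKM in WAT. Mki67, the proliferation marker Ki-67, read 16.4, 15.8 and 13.2 FPKM and then 1.42, 1.54 and 1.69 FPKM in BAT, and 8.33, 9.06 and 7.80 FPKM and then 1.72, 1.59 and 1.52 FPKM in WAT (interaction -0.92 ± 0.103). Bub1b, a spindle checkpoint kinase, had the most negative interaction of the list at -1.14 ± 0.11, and the replication genes Pcna and Mcm7 had values of -0.13 ± 0.0825 and 0.20 ± 0.126 that were not called.

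Promoters of this group are shown for the CCAAT box, which recurs in genes of the late cell cycle. Of the 19 called genes 16 had a promoter entry, and 14 of these held CCAAT on either strand, against 33.8% of all promoters, while TTTGAA, a letter pattern of cell cycle homology regions, was in 7 (16% of all promoters). Capitals mark CCAAT or its reverse complement in the 250 bases before the start of Ccnb2, which encodes cyclin B2 (chr9:70421555-70421804, minus strand), and of Cdk1, its kinase (chr10:69352913-69353162, minus strand), both from RefSeq on GRCm38.p6.
Ccnb2: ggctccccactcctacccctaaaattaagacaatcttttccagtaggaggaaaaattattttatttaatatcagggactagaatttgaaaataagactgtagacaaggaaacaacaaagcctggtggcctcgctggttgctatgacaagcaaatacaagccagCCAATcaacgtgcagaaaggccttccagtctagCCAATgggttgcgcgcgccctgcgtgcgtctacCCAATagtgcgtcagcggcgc
Cdk1: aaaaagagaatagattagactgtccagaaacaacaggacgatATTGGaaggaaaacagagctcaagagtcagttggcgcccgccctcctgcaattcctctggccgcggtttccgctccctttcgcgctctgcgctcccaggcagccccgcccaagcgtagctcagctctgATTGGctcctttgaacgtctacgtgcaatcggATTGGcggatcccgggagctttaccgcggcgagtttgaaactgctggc
Each window held 3 copies, with the nearest 16 bases from the start of Ccnb2 and 43 bases from that of Cdk1. Ccnb2 read 19.6, 19.6 and 21.0 FPKM and then 1.76, 2.29 and 2.46 FPKM in BAT, and 12.1, 12.3 and 11.9 FPKM and then 2.15, 2.28 and 2.39 FPKM in WAT (interaction -0.74 ± 0.125). Cdk1 had an interaction of -0.58 ± 0.130.

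The general adipocyte programme showed no such common direction. Of 29 mature adipocyte genes 8 had the BAT change above, against 12.1% of all tested genes. For 6 it was below, a share close to the 19.7% of all tested genes. The median interaction was 0.17, with median rises of 0.66 in BAT and 0.74 in WAT. Lep, the hormone leptin, rose in both depots, from 0.473, 0.484 and 1.19 FPKM to 57.1, 58.4 and 59.8 FPKM in BAT and from 0.502, 0.444 and 0.449 FPKM to 21.3, 21.8 and 17.8 FPKM in WAT (interaction 1.37 ± 0.0837). Rbp4, a retinol carrier secreted by fat, rose in both depots as well, from 34.5, 41.8 and 56.7 FPKM to 298, 309 and 326 FPKM in BAT and from 47.8, 42.7 and 64.5 FPKM to 143, 133 and 122 FPKM in WAT (interaction 1.38 ± 0.138). Cidec, which enlarges lipid droplets, was the opposite case: it read 75.9, 93.5 and 112 FPKM and then 134, 132 and 143 FPKM in BAT, and 21.9, 18.8 and 26.9 FPKM and then 112, 120 and 111 FPKM in WAT (interaction -1.80 ± 0.153). The number above was 4 with no filter on low values and without any of BAT day 4 replicate 1, BAT day 8 replicate 2 and WAT day 4 replicate 1, and 5 without BAT day 8 replicate 1.

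Among 16 adipocyte transcription factors 5 were above and 1 below, and 3 were above without any of BAT day 4 replicate 1, BAT day 8 replicate 1 and either WAT day 4 replicate. Pparg, the master regulator, read 78.9, 94.6 and 89.9 FPKM and then 140, 137 and 118 FPKM in BAT, and 57, 50.8 and 54.9 FPKM and then 54.2, 66.2 and 54.0 FPKM in WAT, with an interaction of 0.52 ± 0.166 at the edge of the threshold (limma adjusted p = 0.0499). Cebpa was called in neither depot (interaction -0.04 ± 0.162, not called). All 15 genes of de novo lipogenesis rose in BAT and 13 rose in WAT, and 5 were above and 3 below, the latter a share close to the 19.7% of all tested genes. The 3 were Me1, the malic enzyme, at -1.46 ± 0.135, Pnpla3 at -0.84 and the desaturase Scd1 at -0.77 ± 0.134, while Acacb, the acetyl-CoA carboxylase that also restrains fatty acid oxidation, stood at 1.33 ± 0.154. Fasn, the fatty acid synthase, and Thrsp were uneven among the WAT day 8 libraries (Fasn 339, 638 and 519 FPKM and Thrsp 380, 915 and 805 FPKM), and without WAT day 8 replicate 1 the number of lipogenic genes below went from 3 to 10. The number above was 3 without replicate 1 of either BAT group and 2 without WAT day 4 replicate 1. Of 19 glycolysis genes 8 were above and none below, led by Aldoc at 1.64 ± 0.253 and by Hk2, the insulin-sensitive hexokinase, at 1.41 ± 0.0633. That count of 8 was 5 without WAT day 4 replicate 1.

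The 12 largest negative interactions included those of the secreted proteins Reg1, Mmp3, Prg4 and Saa3, and also of the enzyme Aox3 and the transcription factor Snai1. Reg1 (chr6:78375974-78378661, mm9, plus strand), a secreted lectin of regenerating tissue, read 2.60, 2.47 and 3.47 FPKM and then 1.28, 1.25 and 2.42 FPKM in BAT. In WAT it rose from 0.958, 1.75 and 1.26 FPKM to 46.8, 22.9 and 30.6 FPKM (interaction -4.51 ± 0.423, limma adjusted p = 7.59e-04). Mmp3 (chr9:7445822-7455972, mm9, plus strand), the matrix protease stromelysin, fell in BAT from 139, 116 and 138 FPKM to 8.53, 8.87 and 10.9 FPKM, and read 294, 301 and 311 FPKM and then 540, 312 and 373 FPKM in WAT (interaction -4.19 ± 0.314). Prg4, the lubricating proteoglycan lubricin, fell in BAT from 119, 102 and 89.0 FPKM to 9.64, 8.33 and 8.65 FPKM and read 60.2, 63.3 and 77.6 FPKM and then 61.1, 115 and 96.8 FPKM in WAT (interaction -3.91 ± 0.355). BAT day 8 libraries were the lowest of all for Mmp3 and Prg4, with no overlap with another group.

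Snai1 (chr2:167363695-167368314, mm9, plus strand), a repressor linked to epithelial to mesenchymal transition, had the smallest SE of the 24 named genes. It fell in BAT from 68.1, 63.4 and 66.5 FPKM to 20.6, 20.7 and 23.6 FPKM and rose in WAT from 16.7, 17.4 and 20.7 FPKM to 36.8, 35.5 and 38.4 FPKM, so the depots exchanged their order (interaction -2.67 ± 0.0770, limma adjusted p = 3.06e-05). Sned1, an extracellular matrix protein, behaved alike, with 300, 272 and 192 FPKM and then 106, 91.3 and 75.3 FPKM in BAT and 96.7, 121 and 98.1 FPKM and then 237, 202 and 152 FPKM in WAT (interaction -2.54 ± 0.186). E030010N08Rik, a transcript that lies just before Sned1 on the same strand of chromosome 1, had an interaction of -3.75 ± 0.275. Aox3, an aldehyde oxidase, fell in BAT from 3.86, 3.91 and 3.33 FPKM to 1.04, 0.578 and 0.786 FPKM and rose in WAT from 2.91, 2.9 and 3.78 FPKM to 13.4, 16.7 and 13.7 FPKM (interaction -3.48 ± 0.197).

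Stromal groups were mixed. Of 37 extracellular matrix genes 8 had the BAT change above and 13 below (median -0.12), and without WAT day 8 replicate 1 the number above was 13. Col3a1, a fibrillar collagen, fell in BAT from 4492, 3968 and 4103 FPKM to 1554, 1606 and 1764 FPKM, while Col1a1 had no call in BAT (914, 926 and 1040 FPKM and then 1030, 1060 and 1429 FPKM, interaction -0.12 ± 0.178, not called). The elastic fibre gene Eln stood at 1.75 ± 0.271 and Thbs1 at 1.68 ± 0.377. Of 16 tested progenitor markers 9 were below and 1 above. Ly6a, the surface protein Sca-1, read 207, 149 and 161 FPKM and then 297, 282 and 302 FPKM in BAT, and 88.9, 113 and 111 FPKM and then 849, 1039 and 911 FPKM in WAT (interaction -2.49 ± 0.253). Ly6c1 rose in WAT from 9.26, 9.19 and 11.6 FPKM to 286, 399 and 347 FPKM and in BAT from 16.2, 12.8 and 14.3 FPKM to 60.1, 58.8 and 64.5 FPKM (interaction -3.08 ± 0.223), a value that is uncertain because Ly6c2 is nearly identical in sequence. The exception was Dlk1, the preadipocyte factor Pref-1, which fell in both depots and further in WAT (interaction 1.32 ± 0.234).

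Of 15 smooth muscle contractile genes 14 rose and none fell in BAT, and 12 rose and 1 fell in WAT. The BAT change was above the WAT change for 7 of the 15 and below it for none, and the other 8 were not called (median 0.59). Acta2, smooth muscle actin, read 47.5, 61.2 and 64.2 FPKM and then 209, 250 and 294 FPKM in BAT, and 97.5, 80.4 and 83.0 FPKM and then 233, 162 and 182 FPKM in WAT (interaction 0.94 ± 0.279, limma adjusted p = 0.0398). The count of 7 was 11 without WAT day 8 replicate 1, and 4 with no filter on low values and without any of BAT day 4 replicate 1, BAT day 8 replicate 2 and WAT day 4 replicate 2.

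Acute phase and other secreted inflammatory genes gave 12 of 22 below and 5 above, against 19.7% and 12.1% of all tested genes. Saa3, a serum amyloid A protein made by adipose stroma, fell in BAT from 593, 513 and 492 FPKM to 33.7, 36.9 and 32.2 FPKM and in WAT from 1311, 1344 and 1429 FPKM to 728, 783 and 637 FPKM (interaction -3.12 ± 0.122). Complement C3 rose in both depots and more in WAT, where it went from 88.0, 81.5 and 106 FPKM to 595, 818 and 696 FPKM (interaction -1.66 ± 0.201). Itih4, an inter-alpha-trypsin inhibitor chain, rose in BAT from 4.12, 4.57 and 6.73 FPKM to 37.7, 40.3 and 41.2 FPKM and stood at 2.42 ± 0.209. The number above was 2 without BAT day 4 replicate 1 or WAT day 4 replicate 1, and 3 without either BAT day 8 replicate or WAT day 4 replicate 2. Stromal chemokines and cytokines had a median interaction of -0.81, which was smaller in replicate 3 at -0.28. Of the 15 tested, 5 were below and none above. These were Ccl8, Cxcl14, Ccl11, Ccl2 and Csf1, and Ccl11, eotaxin, fell in BAT from 22.1, 22.6 and 25.6 FPKM to 0.974, 1.38 and 1.62 FPKM and in WAT from 60.4, 58.7 and 60.6 FPKM to 27.0, 15.6 and 17.8 FPKM (interaction -1.94 ± 0.304). Without WAT day 8 replicate 2 the number below was 10.

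Interferon-stimulated genes rose in both depots, 20 of 24 in BAT and 23 of 24 in WAT. All 24 interactions were below 0, but only 11 were called, with a median of -0.60, and WAT had the higher mean for 23 on day 4 and for 24 on day 8. Oas2, an antiviral oligoadenylate synthetase outside that list, rose in BAT from 0.213, 0.236 and 0.331 FPKM to 2.84, 2.1 and 2.76 FPKM and in WAT from 0.654, 1.05 and 0.508 FPKM to 30.5, 30.5 and 25.6 FPKM (interaction -2.60 ± 0.191). Ifitm1, an interferon-induced membrane protein, fell in BAT from 19, 18.8 and 15.6 FPKM to 3.10, 2.30 and 2.76 FPKM and read 4.97 to 7.53 FPKM in all WAT libraries (interaction -2.68 ± 0.184). Isg15 and Ifit1 had interactions of -0.55 ± 0.257 and -0.48 ± 0.394 that were not called. The count of 11 was 5 with a pseudocount of 0.1 and 6 with no filter on low values, 6 without WAT day 4 replicate 2, and 7 without any of BAT day 4 replicate 2, BAT day 8 replicate 2 and WAT day 4 replicate 1.

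Depot identity genes, mostly homeobox factors that record where on the body a fibroblast arose, gave 6 of 16 below and none above, against 19.7% and 12.1% of all tested genes, with a median of -0.31. Hoxc8 fell in BAT from 5.43, 4.89 and 4.09 FPKM to 3.19, 3.73 and 3.5 FPKM and rose in WAT from 8.65, 7.12 and 6.10 FPKM to 11.4, 11.9 and 9.63 FPKM (interaction -0.98 ± 0.146). Hoxc10, which marked the WAT libraries, had an interaction of -0.20 ± 0.157 that was not called. Zim1, an imprinted zinc finger gene, rose in BAT from 5.20, 5.39 and 4.09 FPKM to 18.6, 14.5 and 7.54 FPKM and fell in WAT from 28.3, 31.8 and 14.4 FPKM to 9.50, 11.9 and 7.22 FPKM (interaction 2.88 ± 0.191), with a smaller value of 1.65 in replicate 3. Both tested members of the proliferin family were below. Prl2c2, a placental hormone relative also made by proliferating cells, went from 46.1, 38.3 and 33.1 FPKM to 0.430, 0.149 and 0.0666 FPKM in BAT and from 1.44, 2.50 and 2.08 FPKM to 0.142, 0.0293 and 0.355 FPKM in WAT, a fall in both depots (interaction -3.64 ± 0.270), and its near-identical paralogs make the assignment of its reads uncertain.

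Markers of other cell types also moved differently between the depots. In bulk RNA, fewer cells of a type and less RNA per cell cannot be told apart, and the part of these cells in the results above was not tested. Of 14 tested macrophage markers all 14 had the BAT change below the WAT change and all 14 rose in WAT, with a median interaction of -1.23 (range -1.95 to -0.35). The summed level of the list went from 93.9 to 104 FPKM to 179 to 228 FPKM in WAT and from 218 to 245 FPKM to 169 to 187 FPKM in BAT. In BAT 2 of the 14 rose and 2 fell, with a median change of 0.0130, so the lower sum there was not a fall of most members. C1qb, a chain of complement C1q, read 7.31, 6.71 and 9.08 FPKM and then 20.3, 30.6 and 28.7 FPKM in WAT and 20.7, 18.1 and 20.5 FPKM and then 16.8, 15.5 and 17.3 FPKM in BAT (interaction -1.95 ± 0.237). The pan-leukocyte marker Ptprc was below the filter, at 0.0361 to 0.857 FPKM. With the filter raised to 5 FPKM the number called was 8, with fewer genes tested.

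Of 14 tested skeletal muscle markers 11 had the BAT change above and none below, with a median interaction of 1.82. The sum went from 28.4 to 46.0 FPKM to 157 to 171 FPKM in BAT (Mb alone was at 49.8 to 55.1 FPKM on day 8) and from 116 to 127 FPKM to 70.0 to 83.8 FPKM in WAT. Acta1, skeletal actin, read 5.19, 8.79 and 7.45 FPKM and then 20.0, 18.2 and 23.8 FPKM in BAT, and 22.8, 22.9 and 22.6 FPKM and then 15.1, 13.2 and 17.1 FPKM in WAT (interaction 2.03 ± 0.267). The muscle lineage factor Pax7 did not exceed 0.00425 FPKM in any library, Myf5 did not exceed 0.146 FPKM, Myod1 read 0 to 0.916 FPKM, and the adult muscle creatine kinase Ckm read 0 to 1.98 FPKM. These genes were among the 8 of 22 list members below the filter, whereas the muscle factor Myog and the myosins Myh3 and Myh8 passed it. Of 9 tested epithelial and mesothelial markers 8 were above and none below, yet the keratins Krt5, Krt14 and Krt8 and Epcam were at 0 in all BAT libraries, so their values came from WAT alone, where the list sum was 42.5 to 86.8 FPKM on day 4 and 25.6 to 48.4 FPKM on day 8. That count was 3 with a pseudocount of 0.1, and 4 or 5 without any library of BAT or without WAT day 4 replicate 1. Of 13 endothelial markers 1 was above and 2 below, and of 8 Schwann cell markers 2 were above, a count that was 0 or 1 when any single library of replicates 1 and 2 was left out.

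**Figure D4:**
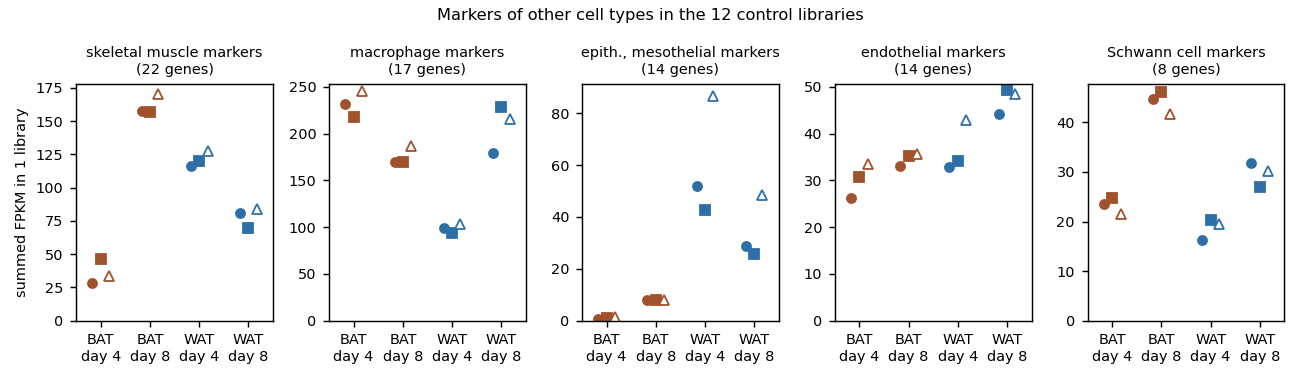
Summed FPKM of 5 lists of markers of other cell types in each of the 12 control libraries, by depot and day, with filled symbols for replicates 1 and 2 and open triangles for replicate 3. The macrophage sum rises in WAT from at most 104 FPKM to at least 179 FPKM and is lower on day 8 in BAT, where 2 of the 14 tested markers rose and 2 fell, the skeletal muscle sum is higher on day 8 in BAT and lower in WAT, and epithelial and mesothelial markers are near 0 in BAT on day 4.

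The same interaction was computed in the EGCG libraries of replicates 1 and 2, which share no library with the control cells. In a fit of 16 libraries over 14095 genes, the control interaction differed from the EGCG interaction for 3283 genes (23.3%). Within EGCG cells 1011 genes (7.17%) had the BAT change above and 1805 genes (12.8%) below. Of the 24 named genes 22 passed the test of control minus EGCG, the EGCG interaction had the same sign for 17 and was called for 10, and its size was smaller for all 24. Since these genes were chosen for a large interaction in control cells, the smaller size under EGCG is a description. Cidea went from 3.33 in control to -0.27 in EGCG cells, Cox7a1 from 2.88 to -0.39 and Snai1 from -2.67 to -0.51. Cidea was hardly expressed in EGCG cells, with group means of at most 0.235 FPKM, so its interaction there could only be small.

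By group, the median interaction of oxidative phosphorylation subunits was 0.63 in control and -0.19 in EGCG cells, and 58 of 68 passed the test of the difference. For the citric acid cycle it was 0.70 and -0.17 with 16 of 18, and for fatty acid oxidation 0.55 and -0.19 with 19 of 23. Immediate early genes kept more of theirs, with 1.15 in control and 0.93 in EGCG cells, and 9 of 26 passed. Egr1 stood at 3.65 and 3.15 in the control and EGCG cells, a difference that missed the threshold (limma adjusted p = 0.471), and Btg2 was likewise not called (limma adjusted p = 0.929). Cyr61 and Fos were among the 9 that passed, beside 23.3% of all genes in that fit. Cyr61 went from 2.89 to 0.08 (limma adjusted p = 8.4e-05) and Fos from 3.59 to 2.49 (limma adjusted p = 0.0038). Cell cycle genes stood at -0.77 and -1.0 with 7 of 24 passing, stromal chemokines had none of 15, and skeletal muscle markers stood at 1.82 and 1.77 with 1 of 14. Smooth muscle genes changed sign of the median, from 0.59 to -0.58, with 10 of 15 passing.

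**Figure D5:**
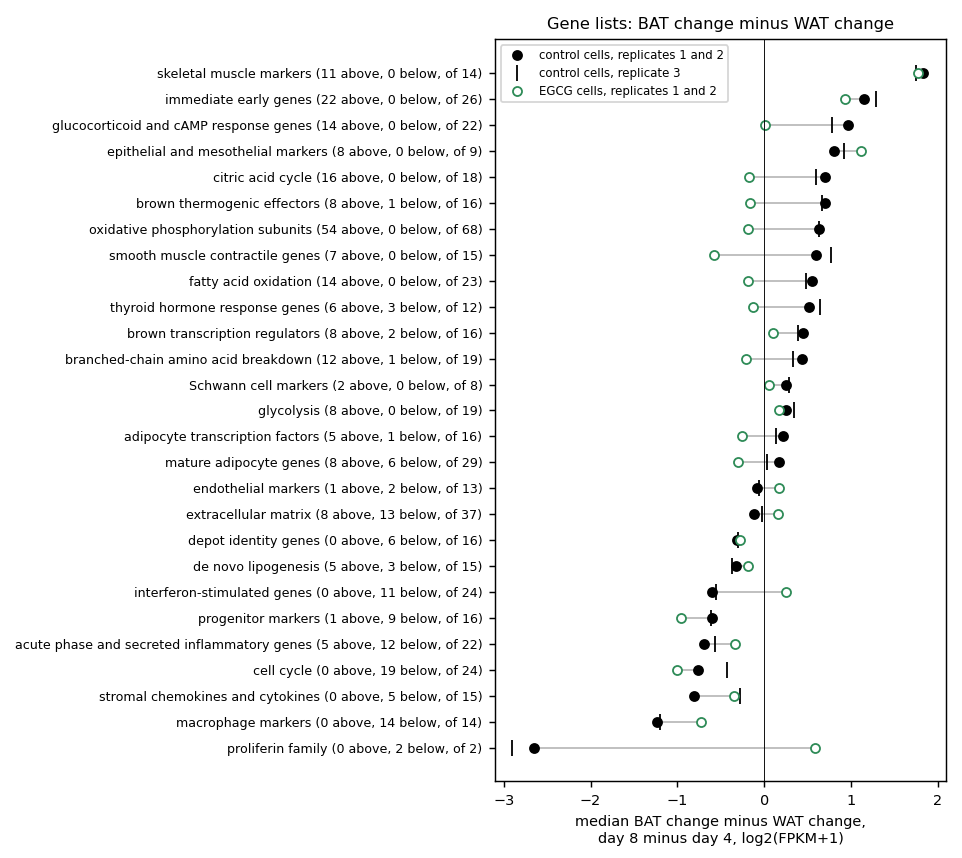
Median BAT change minus WAT change of 27 gene lists, in log2(FPKM + 1), in control cells of replicates 1 and 2 (black dots), control cells of replicate 3 (black ticks) and EGCG cells of replicates 1 and 2 (open circles), with the number of genes called in each direction in control cells. The mitochondrial lists lie right of 0 in control cells and at or left of 0 in EGCG cells, while the immediate early genes and skeletal muscle markers lie right of 0 in both.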

How the data were processed

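Genes were counted from libraries of 12 control and 12 EGCG samples. Per the submitters' processing notes, FastQC 0.11.9, HISAT2 2.2.0 and HTSeq 0.11 were used with the mm9 build, and the strand setting is not given in the sources used here. The authors deposited FPKM per gene for 37310 genes in 2 tables, replicates 1 and 2 in the first and replicate 3 in the second. Multiplied by gene length and depth, at least 99.9406% of control values came out as whole reads (tolerance 0.01), which gave the depths. Low depth limits replicate 3 most.

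FPKM were transformed as log2(FPKM + 1), so changes of low genes are understated. Genes with FPKM of at least 1 in at least 2 of 8 control libraries were kept. A gene could pass through a single group, and the sign of its interaction was then largely fixed. limma 3.58.1 (R 4.3.3, empirical Bayes with trend, 4 residual degrees of freedom) was fitted to the 4 control groups of replicates 1 and 2, with two-sided Benjamini-Hochberg adjusted p under 0.05 as a call, and a 16-library fit compared control with EGCG. Interactions are given ± SE. Sums, shares and figures were made in Python 3.11.15 with pandas 2.3.3, numpy 2.4.6 and matplotlib 3.10.9, and the fit was tested on simulated data. Replicates of each group differed by more than sampling noise.

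Named genes were the 12 largest interactions in each direction among called protein-coding genes with a mean of at least 10 FPKM in the highest control group and the same sign in replicate 3 and with a pseudocount of 0.1, plus members of 26 gene lists (543 of 545 entries matched) and 3 lists written after values were seen. The question and the 26 lists were chosen with earlier results of these data known. Some genes, such as Cox7a1 and Cox8b, are in more than 1 list, so the counts of lists are not independent. Alternatives were the pseudocount, the filter, the scaling, the spread estimate, the block and leaving out each library.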

Additional observations from a re-analysis of the deposited data

Results flagged for a closer look

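The depot by day interaction is itself a test of whether the change between the days differed between BAT and WAT, and 4276 genes passed it in the control cells. Among the named genes the difference was positive for Mb (4.37), Cox8b (3.74), Egr1 (3.65), Fos (3.59), O3far1 (3.43), Slc25a34 (3.39), Cidea (3.33), 8430408G22Rik (3.10), Ntsr2 (3.06), Cyr61 (2.89), Cox7a1 (2.88) and Zim1 (2.88). It was negative for Reg1 (-4.51), Mmp3 (-4.19), Prg4 (-3.91), E030010N08Rik (-3.75), Prl2c2 (-3.64), Aox3 (-3.48), Saa3 (-3.12), Ly6c1 (-3.08), Ifitm1 (-2.68), Snai1 (-2.67), Oas2 (-2.60) and Sned1 (-2.54). The WAT day 8 libraries were uneven for some of these genes, with Egr1 at 31.2, 14.4 and 19.7 FPKM, Mmp3 at 540, 312 and 373 FPKM and Reg1 at 46.8, 22.9 and 30.6 FPKM.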

How the results depend on the processing

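The 480 values of the 24 named genes under the alternatives all kept their direction and their call, which the choice of large called interactions with the same sign in replicate 3 and with a pseudocount of 0.1 had largely fixed. No value reversed. Leaving out 1 library at a time gave 2504 to 4673 called interactions, 1015 to 1841 with the BAT change above and 1489 to 2832 below. The total was 2504 without BAT day 4 replicate 1, 2787 without BAT day 8 replicate 1, 2577 without WAT day 4 replicate 1 and 2832 without WAT day 4 replicate 2, and the number below was 1724 without BAT day 4 replicate 2. The day 8 against day 4 calls ranged over 7538 to 9412 in BAT and 6051 to 7409 in WAT when a library was left out. The replicate numbers did not pair the libraries (correlations of replicate deviations between groups -0.085 to 0.0739), and a replicate block gave 3741 calls, of which 3666 were calls without the block, while 610 calls were no longer made. Of the 4276 calls, 3537 were kept with median-ratio scaling, 3576 with quantile normalization, 3852 with a pseudocount of 0.1 and 3980 with both tables in 1 fit, and none turned direction. With 2 tested libraries per group and a median SE of 0.125 over all tested genes, small interactions were the least firm.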

Other observations

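2 further groups were put together after the values had been seen, so their counts are descriptions. Of the 13 mRNAs of the mitochondrial genome, which encode the core subunits that the nuclear respiratory chain genes complete, 4 (mt-Co1, mt-Cytb, mt-Nd5 and mt-Nd6) had the BAT change above the WAT change and none below, with a median interaction of 0.41. Their summed level was 18440 to 19960 FPKM on day 4 and 19750 to 23420 FPKM on day 8 in BAT, and 16120 to 17440 FPKM and 13050 to 16480 FPKM in WAT. The count of 4 was 0 with no filter on low values, 1 without BAT day 4 replicate 1, either BAT day 8 replicate or WAT day 4 replicate 1, and 2 without BAT day 4 replicate 2 or WAT day 4 replicate 2.

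Of 28 imprinted genes, expressed from the allele of 1 parent, 22 were tested, 8 had the BAT change above and 2, Airn and Peg10, below, with a median interaction of 0.12. The 8 were Zim1, Mest, Peg3, Igf2, Cdkn1c, Dlk1, Nnat and Grb10, several of which restrain or promote fetal growth. Mest read 11.4, 16.4 and 14.9 FPKM on day 4 and 10.6, 11.9 and 17.5 FPKM on day 8 in BAT, and fell in WAT from 28.0, 25.2 and 27.8 FPKM to 4.58, 4.47 and 5.08 FPKM (interaction 2.05 ± 0.207). Peg3 rose in BAT from 33.0, 34.4 and 26.6 FPKM to 50.6, 42.9 and 33.9 FPKM and fell in WAT from 106, 110.0 and 81.5 FPKM to 32.4, 40.5 and 34.2 FPKM (interaction 2.01 ± 0.159). Igf2 fell in both depots, to 4.23 to 5.23 FPKM in BAT and 3.14 to 3.23 FPKM in WAT on day 8 (interaction 1.62 ± 0.0846). H19, which shares its locus with Igf2, had an interaction of 0.73 ± 0.384 that was not called (limma adjusted p = 0.188).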
